A study of Homo sapiens with 4 samples.

Results

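The nuclear-encoded subunits of the mitochondrial respiratory chain were compared between H1299 cells that express CASM34 and H1299 cells that express p53WT. The subunits are the 91 protein-coding genes, of 61852 gene IDs in the deposited tables, whose symbol is NDUFA, NDUFB, NDUFC, NDUFS or NDUFV with a digit, NDUFAB1, SDHA to SDHD, UQCR with any ending, CYC1, COX4 to COX8 with any ending, or ATP5 with any ending. The symbols of 271 genes of any type matched, and the pseudogenes and noncoding genes among them were left out. Complex I has 38 of the 91 genes, complex II 4, complex III 10, complex IV 19 and complex V 20, with NDUFA4 and its paralogue NDUFA4L2 placed in complex IV.

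H1299 is a non-small-cell lung carcinoma line whose genotype the labels give as p53-/-. CASM34 stands, by the series title, for a cancer-associated synonymous mutation of p53, a base change that leaves the encoded protein sequence as it was. The CASM34 group has 2 libraries and the p53WT group has 2, and both were grown in the same serum-containing medium with no treatment given in the labels. Whether the p53 constructs were introduced stably or transiently, in a clone or in a pool, is not stated in the sources used here, and cells without p53 were not analysed here. The labels do not say that the replicates came from separate cultures, so a p-value here measures the spread among 4 libraries and nothing about separate cultures, and that spread may be technical.

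Poly(A) RNA was sequenced, and the totals were 26906095 and 18086983 expected counts in the CASM34 libraries and 21717726 and 25969760 in the p53WT libraries. The subunits took 1.06% and 1.09% of the counts in CASM34 and 1.07% and 1.12% in p53WT, so the groups overlapped. Epithelial markers (EPCAM, KRT8, KRT18, KRT19 and CDH1) summed to 1592 and 1562 CPM (expected counts scaled to a common library total) in CASM34 and to 1513 and 1545 CPM in p53WT, and VIM and CDH2 to 4523 and 4281 CPM in CASM34 and 4343 and 4297 CPM in p53WT. Nearly all of the epithelial sum came from KRT8 (501 to 556 CPM) and KRT18 (1011 to 1035 CPM). EPCAM, KRT19 and CDH1 had at most 0.310, 0.493 and 0.110 CPM in a library. Leukocyte, endothelial, muscle and fibroblast markers summed to at most 0.487, 0.974, 0.712 and 3.40 CPM in a library. CPM is relative to the scaled total of a library, and the amount of RNA per cell was not measured.

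The respiratory chain passes electrons from NADH (complex I) and from succinate (complex II) through ubiquinone to complex III, then through cytochrome c to complex IV, which reduces oxygen. Complexes I, III and IV pump protons out of the matrix, and complex V, the ATP synthase, uses their return to make ATP. A small set of core subunits is encoded in mitochondrial DNA, and all the other subunits, as well as the whole of complex II, are encoded in the nucleus, so the complexes are built from the products of both genomes. Among the links known between p53 and respiration is SCO2, a p53 target that encodes a complex IV assembly protein.

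The chain was expressed at high levels in all 4 libraries. By TPM, a length-corrected level, 68 of the 85 subunits with enough counts to test averaged over 100 TPM, and the median subunit had 234 TPM. The median was 178 TPM in complex I, 145 TPM in complex II, 205 TPM in complex III, 539 TPM in complex IV and 303 TPM in complex V. The highest level belonged to ATP5MF, the f subunit of the ATP synthase membrane sector, with 2187 and 2248 TPM in CASM34 and 2308 and 2392 TPM in p53WT. COX8A, a small membrane subunit of complex IV, was the highest of its complex, with 1380 and 1486 TPM in CASM34 and 1446 and 1531 TPM in p53WT. NDUFB2, an accessory subunit of the membrane arm, led complex I with a mean of 658 TPM, UQCRH, the hinge protein between cytochrome c1 and cytochrome c, led complex III with 931 TPM, and SDHB, the iron-sulfur subunit, led complex II with 198 TPM. The lowest tested levels were those of NDUFA4L2 (mean 1.36 TPM), the read-through gene NDUFC2-KCTD14 (1.89 TPM), the read-through gene ATP5MF-PTCD1 (14.1 TPM), NDUFV3 (24.7 TPM), COX7B2 (27.4 TPM) and UQCRHL (38.0 TPM). TPM of very short transcripts rests on a small effective length, which was 31.5 bases for ATP5ME and under 100 bases for 4 tested subunits. ATP5MF, the highest by TPM, is among them with 89.0 bases. By CPM ATP5MF had 163 and 173 in CASM34 and 167 and 184 in p53WT. That is below ATP5F1B, with 1292 and 1246 CPM in CASM34 and 1310 and 1376 CPM in p53WT.

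**Figure D1:**
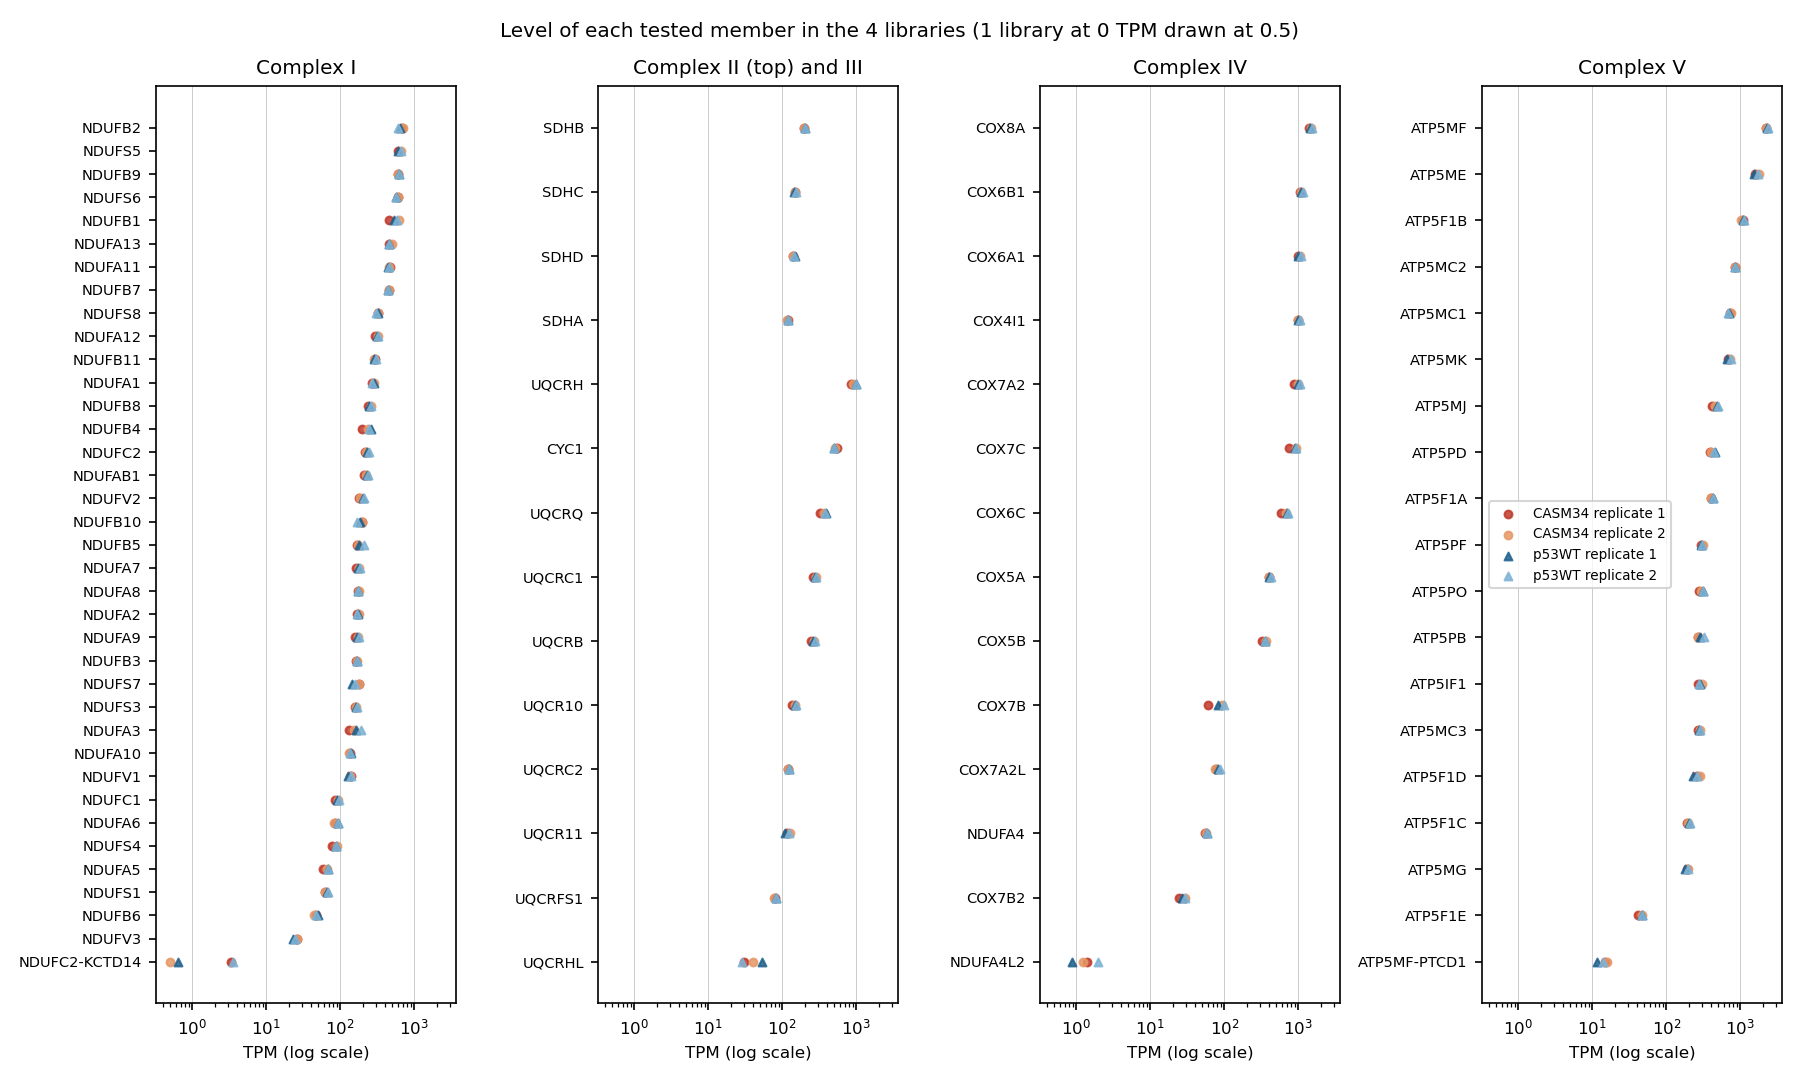
Levels of tested subunits (TPM, log scale) in each library, by complex, with circles for the CASM34 libraries and triangles for the p53WT libraries. The 4 points of most genes lie on top of each other, from 1.36 TPM for NDUFA4L2 to 2284 TPM for ATP5MF (means of 4 libraries), and the CASM34 library with NDUFC2-KCTD14 at 0 TPM is drawn at 0.5.

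Between CASM34 and p53WT the levels of the subunits differed little. By edgeR's quasi-likelihood F test across all 15965 genes tested, with Benjamini-Hochberg adjustment and a threshold of 0.05, 1 of the 85 tested subunits rose in CASM34 and 0 fell. Of all genes tested, 1.61% were called higher and 0.345% lower, so 1 subunit in 85 lies close to the background. DESeq2 called 0 in either direction, beside 1.54% higher and 0.510% lower of all genes it tested, limma-voom called 1 that rose and 0 that fell, beside 1.60% and 0.401%, and limma on log2(TPM + 1) called 0 in either direction, beside 0.00% of all genes. At an unadjusted p under 0.05, 7 subunits were higher and 14 lower in CASM34, beside 10.3% and 6.81% of all genes. The 95% interval of the fold change lay within 1.3-fold in either direction for 79 of the 85 subunits and within 1.5-fold for 82. These intervals measure the spread among the 4 libraries, which may be technical, and not the spread between separate cultures. The intervals that ran past 2-fold were those of the low genes NDUFC2-KCTD14 and NDUFA4L2.

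The 1 call was NDUFS7 (ENSG00000115286.21, GRCh38 chromosome 19, 1383527 to 1395589, plus strand), which encodes a core subunit of complex I that carries the last iron-sulfur cluster before ubiquinone. NDUFS7 had 78.5 and 78.1 CPM in CASM34 and 62.0 and 68.2 CPM in p53WT. Both CASM34 libraries lay above both p53WT libraries, with a mean of 78.3 ± 0.27 CPM in CASM34 and of 65.1 ± 4.4 CPM in p53WT (SD, n = 2 each). The log2 fold change was 0.27 (SE 0.056, 95% interval 0.14 to 0.39, edgeR adjusted p = 0.0315). The call was lost with an offset for GC content and length, which left a log2 fold change of 0.06 (edgeR adjusted p = 0.658), and without p53WT replicate 1, which left 0.20 (edgeR adjusted p = 0.228), and over all 16 alternatives the adjusted p ran from 0.00016 to 0.658. It was also lost with DESeq2 (adjusted p = 0.0537) and with limma on log2(TPM + 1) (adjusted p = 0.338). In edgeR it was lost when effective length served as the offset (adjusted p = 0.309). The log2 fold change was 0.26 in each of these. Almost no gene passed in some of these fits. Of all genes, 0.00% were called higher with limma on log2(TPM + 1) and 0.0188% with the effective length offset. NDUFS7 held fractional counts in all 4 libraries, and its exons overlap those of the opposite-strand gene AC005329.1, which had 56.4 and 43.1 expected counts in CASM34 and 29.8 and 49.2 in p53WT, and those of the opposite-strand gene AC005329.3, which had 11.4 and 3.16 expected counts in CASM34 and 1 and 2 in p53WT. No source used here says whether reads were counted by strand.

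Other core subunits of complex I, which bind flavin or iron-sulfur clusters or lie on the electron path, had fold changes on both sides of 0 and did not pass. NDUFV2, a subunit of the NADH-binding module, was the lowest at -0.16 on the log2 scale (SE 0.049, edgeR adjusted p = 0.117). It had 84.6 and 85.2 CPM in CASM34 and 92.5 and 96.8 CPM in p53WT. NDUFS1, which carries iron-sulfur clusters of the same module, had -0.09, and NDUFV1, which binds NADH and the flavin, had -0.0041. NDUFS3 had 0.05 and NDUFS8 had 0.07. These 5 lay closer to 0 than NDUFS7, and the groups overlapped in NDUFS3 and NDUFV1.

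Among the accessory subunits of complex I, 22 of the 38 genes of the complex, the core genes included, had a fold change below 0, and the complex median was -0.016. NDUFB2 (ENSG00000090266.13, chromosome 7, 140690777 to 140722790, plus strand) had 102.7 and 108.1 CPM in CASM34 and 94.7 and 94.7 CPM in p53WT, for a fold change of 0.15 on the log2 scale (SE 0.048, edgeR adjusted p = 0.124). With the GC and length offset NDUFB2 was the only subunit to pass, at 0.25 (edgeR adjusted p = 0.0366), beside 0.138% of all genes in that direction. NDUFB2 also held fractional counts in all 4 libraries, and its exons overlap those of ADCK2 on the same strand and of BRAF and NDUFB2-AS1 on the opposite strand. The lowest complex I gene with more than a few counts, NDUFB4 of the membrane arm, had 59.6 and 69.6 CPM in CASM34 and 74.8 and 74.1 CPM in p53WT. Its log2 fold change was -0.21 (SE 0.066, edgeR adjusted p = 0.121), and CASM34 replicate 1 stood well below the other 3 libraries. NDUFB4, like ATP5F1D and ATP5PD below, was picked after looking at its values. The read-through gene NDUFC2-KCTD14 had 26 and 0 counts in CASM34 and 4 and 28 counts in p53WT, a spread within each group that leaves no usable fold change.

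Complex II, succinate dehydrogenase, also works in the tricarboxylic acid cycle and has no mitochondrially encoded subunit. Its 4 genes had log2 fold changes from -0.062 to -0.0047, and none passed. SDHA, the flavoprotein that oxidises succinate, had 213.6 and 203.5 CPM in CASM34 and 207.6 and 211.1 CPM in p53WT (log2 fold change -0.0047, SE 0.046, edgeR adjusted p = 0.974). SDHB had -0.03, and the membrane anchors SDHC and SDHD had -0.05 and -0.06. The groups overlapped in SDHA, SDHB and SDHC, and in SDHD both CASM34 libraries (121.5 and 120.01 CPM) lay below both p53WT libraries (126.8 and 125.5 CPM), with an edgeR adjusted p of 0.526. The 95% interval of SDHA ran from -0.10 to 0.10, and that of SDHD from -0.16 to 0.04.

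Complex III passes electrons from ubiquinol to cytochrome c. CYC1, which encodes cytochrome c1, had 409.6 and 394.7 CPM in CASM34 and 365.0 and 378.2 CPM in p53WT. The groups did not overlap, and the difference of 0.11 on the log2 scale (SE 0.046, edgeR adjusted p = 0.226) did not pass. Its sign changed under the GC and length offset, which gave -0.065. The core proteins UQCRC1 and UQCRC2 had 0.04 and -0.07, and UQCRFS1, the Rieske iron-sulfur protein, had -0.07. UQCR11, a small accessory subunit, had the highest fold change of the complex, 0.12, with overlapping groups of 91.0 and 100.9 CPM in CASM34 and 79.1 and 96.6 CPM in p53WT. UQCRH (ENSG00000173660.12) had 175.0 and 185.3 CPM in CASM34 and 197.4 and 204.7 CPM in p53WT, for a fold change of -0.16 on the log2 scale (SE 0.048, edgeR adjusted p = 0.109). Its near-identical intronless copy UQCRHL had 4.08 and 4.22 CPM in CASM34 and 5.66 and 5.46 CPM in p53WT, and the largest negative fold change of all tested subunits, -0.42 (SE 0.17, edgeR adjusted p = 0.211). Neither gene of the pair held a fractional count in any library. By TPM the groups of UQCRHL overlapped, with 29.99 and 40.8 TPM in CASM34 and 52.9 and 28.4 TPM in p53WT. Its effective length was 161 and 122 bases in CASM34 and 128 and 227 bases in p53WT.

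In complex IV, cytochrome c oxidase, 0 of the 14 tested genes had a fold change above 0, the median was -0.059 and none passed in either direction (0 higher and 3 lower at an unadjusted p under 0.05). Without p53WT replicate 2 that median was -0.0072, and without p53WT replicate 1 it was -0.13. With the GC and length offset it was -0.0066, with 6 of the 14 above 0. The genes of the subunits that clasp the mitochondrially encoded core were close to 0: COX4I1, which binds the adenine nucleotides that regulate the enzyme, had 996 and 1004 TPM in CASM34 and 982 and 1053 TPM in p53WT, and its log2 fold change was -0.0096 (SE 0.052, edgeR adjusted p = 0.948). COX5A had -0.03 and COX5B, the zinc-binding subunit, had -0.03. The lowest was COX7A2, the general isoform of subunit VIIa, at -0.14 (SE 0.064, edgeR adjusted p = 0.276), with 122.3 and 136.6 CPM in CASM34 and 133.8 and 151.0 CPM in p53WT, and with the GC and length offset it had 0.0020. COX7B was close behind at -0.14, COX6B1 had -0.08, COX8A -0.05, NDUFA4 -0.05 and COX6A1 -0.02. The groups overlapped in COX7A2, COX7B, COX8A and COX6A1.

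In complex V the catalytic head genes had small negative fold changes and none passed. ATP5F1B, the catalytic beta subunit, had 1292 and 1246 CPM in CASM34 and 1310 and 1376 CPM in p53WT, for a fold change of -0.08 on the log2 scale (SE 0.047, edgeR adjusted p = 0.405). ATP5F1A, the alpha subunit, had -0.09 and ATP5F1C, the gamma subunit of the rotor shaft, had -0.08, with CASM34 below p53WT in both libraries for all 3. ATP5PB (ENSG00000116459.11), the b subunit of the stalk that holds the head still, had 202.0 and 211.6 CPM in CASM34 and 222.1 and 238.2 CPM in p53WT, the lowest fold change of the complex at -0.16 (SE 0.050, edgeR adjusted p = 0.129). ATP5PD, the d subunit of the same stalk, had -0.15 (SE 0.046, edgeR adjusted p = 0.110). ATP5F1D (ENSG00000099624.8), the delta subunit of the rotor, lay on the other side with 123.1 and 124.7 CPM in CASM34 and 101.3 and 113.2 CPM in p53WT, for a fold change of 0.21 on the log2 scale (SE 0.055, edgeR adjusted p = 0.0755). With the GC and length offset it became -0.07. ATP5IF1, which encodes the inhibitor that stops the enzyme from running backwards, had 0.02, and the read-through gene ATP5MF-PTCD1, which shares exons with ATP5MF and PTCD1, had 0.28 (SE 0.095, edgeR adjusted p = 0.149).

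**Figure D2:**
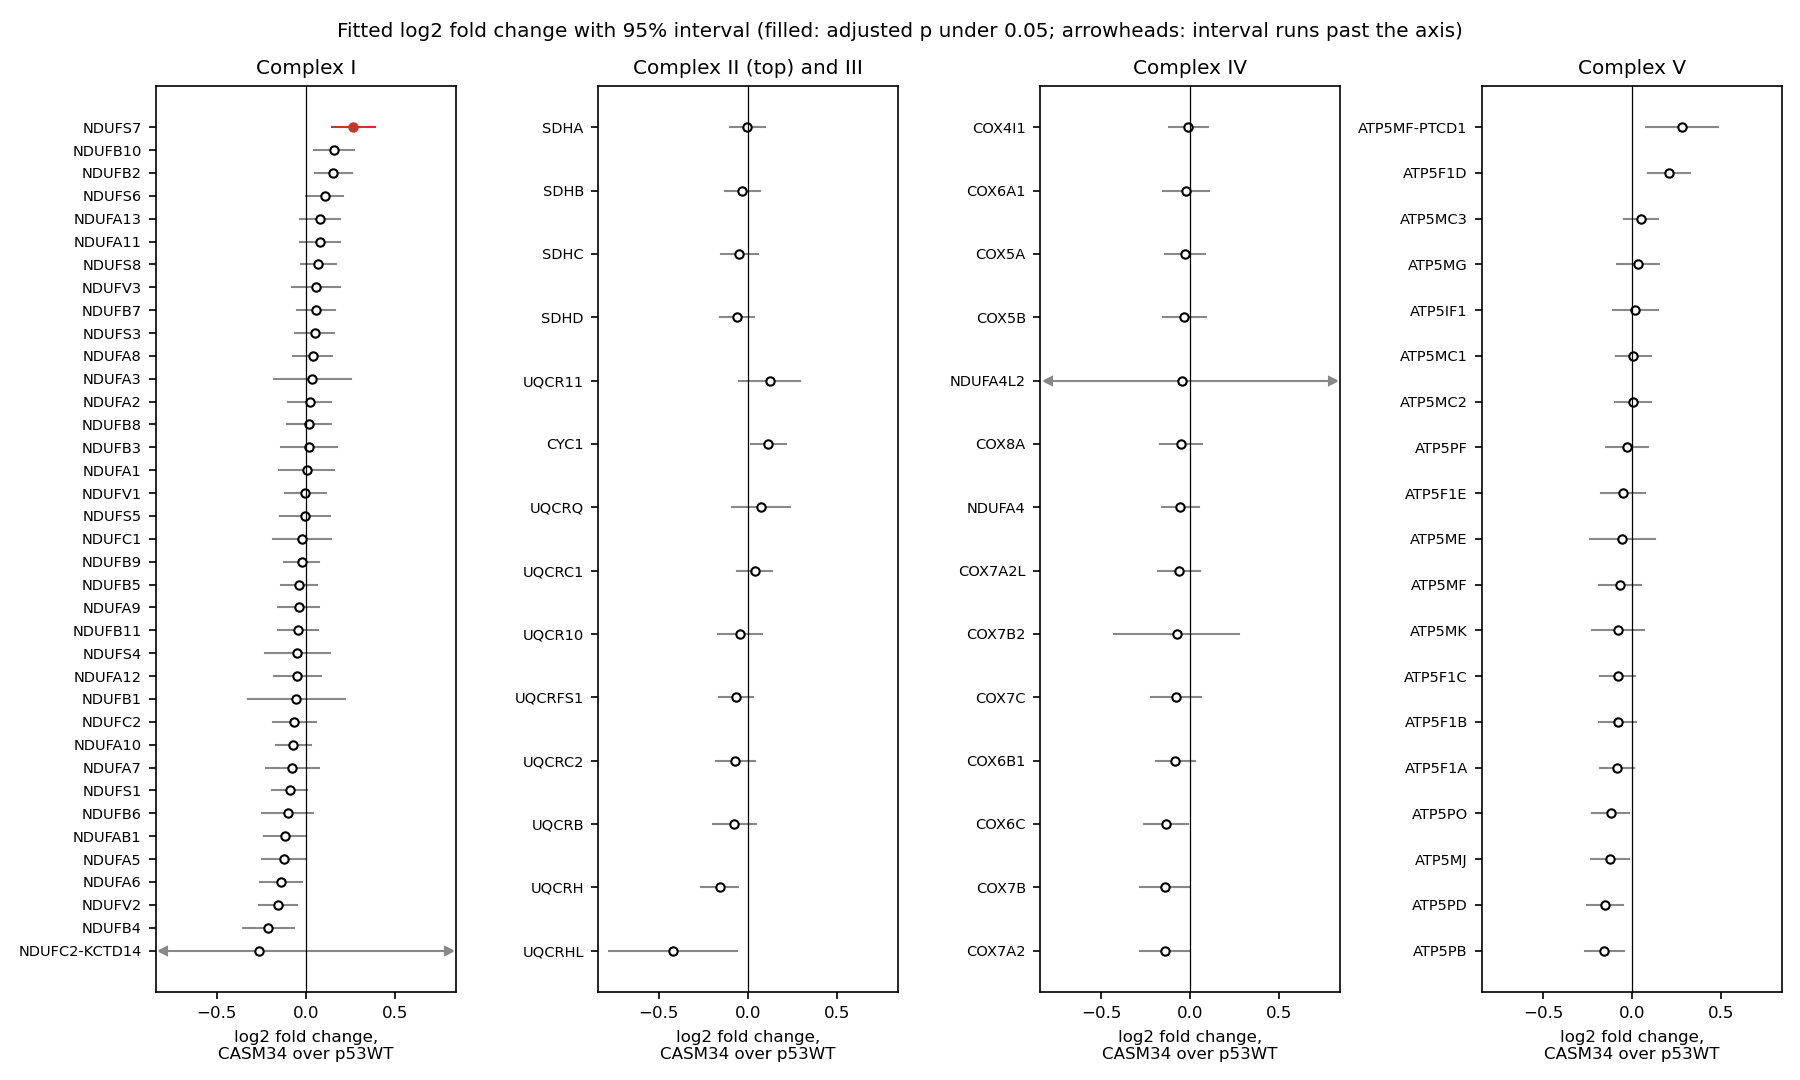
Fitted log2 fold change of CASM34 over p53WT with its 95% interval for tested subunits, by complex, with a filled point for an adjusted p under 0.05. NDUFS7 at 0.27 is the only filled point, the complex IV points all lie below 0, and the intervals of NDUFC2-KCTD14 and NDUFA4L2 run past the axis at 0.8.

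Taken over the chain, 58 of the 85 fold changes were below 0, against 50.2% of all genes tested, and the median was -0.045 beside -0.00055 for all genes. The CPM of the groups did not overlap for 34 subunits, with CASM34 above in 11 and below in 23, beside 24.5% and 23.4% of all genes tested. The tilt was within the spread between libraries. The median of the subunits in a library was taken relative to each gene's mean over the 4 libraries. It was -0.03 and 0.01 in CASM34 and -0.03 and 0.06 in p53WT on the log2 scale, with a pooled within-group SD of 0.05. CASM34 replicate 1 and p53WT replicate 1 were thus nearly level, and p53WT replicate 2 was the highest. Without p53WT replicate 2, 37 of the 85 fold changes were below 0 and the median was 0.0090, and without p53WT replicate 1, 66 were below 0 and the median was -0.09. Complex IV showed the widest gap of this kind, with medians of -0.06 and 0.02 in CASM34 and -0.03 and 0.10 in p53WT. Without CASM34 replicate 2, 2 subunits rose and 7 fell (NDUFB4, UQCRH, COX6C, COX7A2, COX7B, COX7C and ATP5PB), beside 3.82% and 1.72% of all genes, and without CASM34 replicate 1, 3 rose (NDUFS7, ATP5F1D and ATP5MF-PTCD1) and 1, NDUFC2-KCTD14, fell, beside 2.24% and 0.777%.

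**Figure D3:**
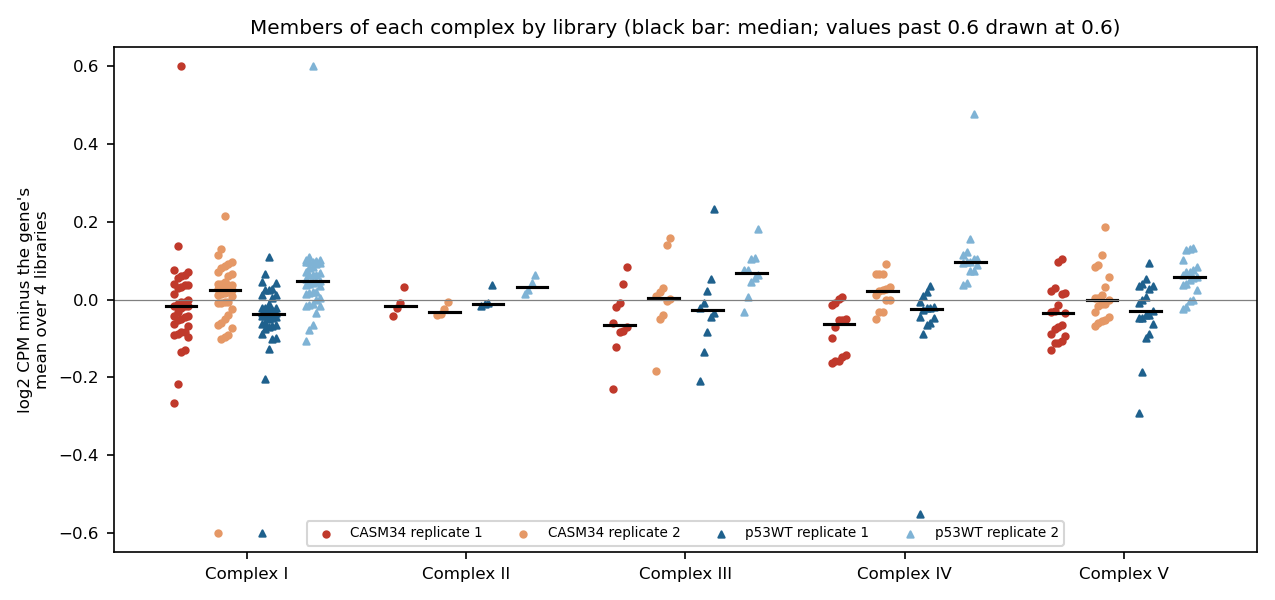
Each point is a tested subunit in a library, as its log2 CPM minus the mean of that gene over the 4 libraries, with a black bar at the median of the complex and values past 0.6 drawn at 0.6. The bars of p53WT replicate 2 are the highest in every complex (0.10 in complex IV), and those of the other 3 libraries lie between -0.065 and 0.024.

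The fold changes of the subunits were lowest in GC-poor and highest in GC-rich transcripts, without a steady climb in between. Spearman's correlation between GC content and log2 fold change was 0.58 over the 85 subunits and 0.47 over all genes tested, as a description across genes that share the same 4 libraries. Of the 26 subunits under 45% GC, 3 had a fold change above 0 and the median was -0.08, beside -0.07 for all genes in that band. The 21 from 45 to 50% GC had a median of -0.07 and 2 above 0, and the 17 from 50 to 55% had 0.0024 and 9 above 0. Of the 12 from 55 to 60%, 5 were above 0 and the median was -0.02, beside 0.06 for all genes in that band. Of the 9 at 60% GC and over, 8 were above 0 and the median was 0.08, beside 0.17 for all genes in that band. With the offset the subunits' correlation was -0.18, their median was 0.0020, 42 of 85 were below 0 and 30 had changed sign. The slope on GC was taken for each library's log2 CPM minus the gene's mean over the 4 libraries. Over all genes this slope, per 10 percentage points, was 0.07 and 0.04 in CASM34 and -0.06 and -0.05 in p53WT. Such slopes cancel out over the 4 libraries by construction, so opposite signs are partly built in. Over the subunits it was 0.09 and -0.01 in CASM34 and -0.08 and 0.01 in p53WT. The subunit slopes include the low genes NDUFC2-KCTD14 and NDUFA4L2, which varied far more between libraries than most subunits. NDUFC2-KCTD14 had 0 counts in CASM34 replicate 2 and 28 counts in p53WT replicate 2. Slopes without these genes were not computed, so the sign of the values near 0 cannot be read as a difference between replicates. The offset takes the GC trend of each library out of these same data, any group difference along that trend included. Fold changes that follow the trend therefore shrink by construction. The offset cannot tell a technical GC trend from a difference between the groups. The part of GC content in the fold changes was not tested.

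The first 90 coding bases of a pair of GC-rich and a pair of lower-GC subunits are shown with G and C in capitals (GENCODE 29 transcripts on GRCh38, plus strand for all 4). NDUFS7 and ATP5F1D had positive fold changes, and NDUFB4 and ATP5PB negative ones. They were picked with their GC content and fold changes known, to show what the base composition looks like, and are not the ends of the range.
NDUFS7: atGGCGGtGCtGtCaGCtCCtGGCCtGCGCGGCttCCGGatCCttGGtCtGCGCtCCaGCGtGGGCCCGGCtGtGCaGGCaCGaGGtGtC
ATP5F1D: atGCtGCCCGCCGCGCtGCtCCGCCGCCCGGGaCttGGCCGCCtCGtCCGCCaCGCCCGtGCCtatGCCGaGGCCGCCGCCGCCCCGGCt
NDUFB4: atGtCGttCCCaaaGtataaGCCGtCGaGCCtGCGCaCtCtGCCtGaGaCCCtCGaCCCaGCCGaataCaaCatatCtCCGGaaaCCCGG
ATP5PB: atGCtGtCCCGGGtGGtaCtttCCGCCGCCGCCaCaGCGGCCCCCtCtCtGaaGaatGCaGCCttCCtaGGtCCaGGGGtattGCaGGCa

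Of these 90 bases, 63 were G or C in NDUFS7 and 73 in ATP5F1D, against 51 in NDUFB4 and 57 in ATP5PB. Over the whole coding sequence the share was 66.0% in NDUFS7 and 68.0% in ATP5F1D, against 48.2% in NDUFB4 and 46.2% in ATP5PB. At the third codon position, where synonymous changes mostly fall, it was 84.6% in NDUFS7 and 86.4% in ATP5F1D, against 52.3% in NDUFB4 and 45.5% in ATP5PB.

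**Figure D4:**
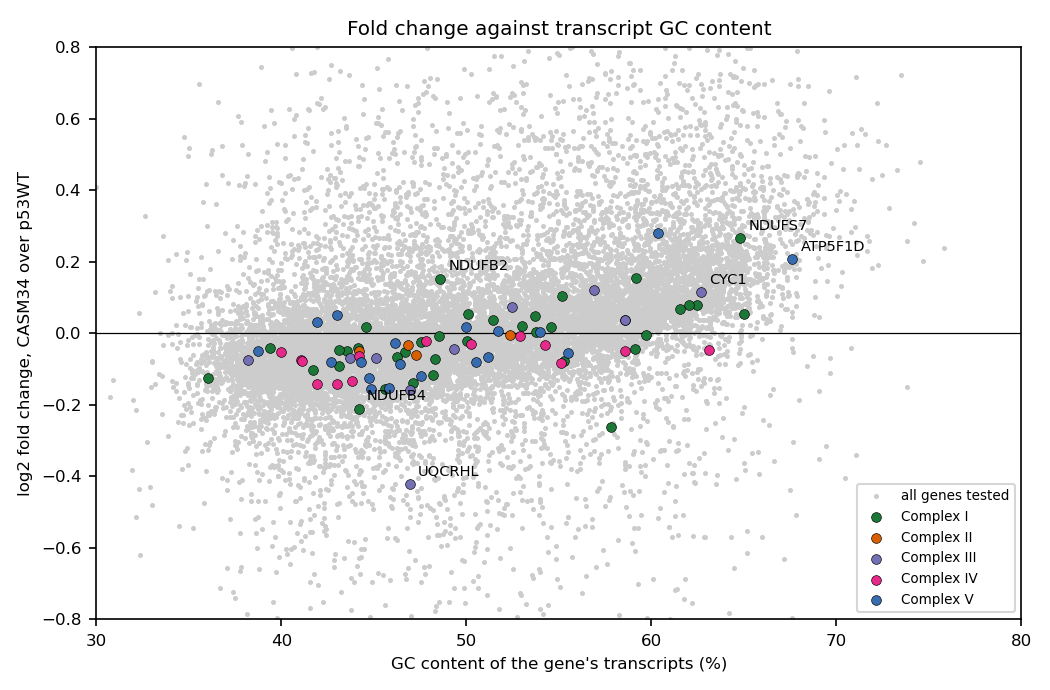
Log2 fold change of CASM34 over p53WT against the GC content of the gene's transcripts, in grey for all genes tested and in colour for the subunits of each complex, with 400 genes past 0.8 in either direction not drawn. Most subunits run along the cloud from the lower left to NDUFS7 (64.8% GC) and ATP5F1D (67.6% GC) at the upper right, and UQCRHL lies below it.

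Several subunits exist as tissue isoforms, and the same isoforms led in both groups. COX4I1 made up 100% of the subunit IV transcripts in every library, since COX4I2, the isoform of lung and of hypoxic cells, had 0 counts in all 4. The muscle isoforms COX6A2 and COX7A1 had at most 1 count in a library, against 5275 and 3816 counts for COX6A1 in CASM34 and 4180 and 5674 in p53WT. COX8C had 3 and 0 counts in CASM34 and 0 and 0 in p53WT. COX6B2, the testis isoform of COX6B1, had 12 and 7 counts in CASM34 and 2 and 3 in p53WT, too few to test, and was at most 0.0326% of the TPM of the pair in a library. A count of 0 allows up to 3 counts, which is 0.112 and 0.166 CPM in CASM34 and 0.138 and 0.116 CPM in p53WT, for counting error only. These limits use the library totals without the TMM factor. The 6 subunits too low to test were these 5 (COX4I2, COX6A2, COX6B2, COX7A1 and COX8C) and ATP5MGL, which was at 0 counts in all 4 libraries.

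COX7B2 was the exception among the rare isoforms. It made up 28.9% and 23.8% of the COX7B and COX7B2 TPM in CASM34 and 24.6% and 22.7% in p53WT, and its log2 fold change was -0.08 (SE 0.16, edgeR adjusted p = 0.857). COX7A2L, which joins complexes III and IV into supercomplexes, made up 7.96% and 7.06% of the COX7A2 and COX7A2L TPM in CASM34 and 7.80% and 7.57% in p53WT. NDUFA4L2, a hypoxia-induced paralogue of NDUFA4, made up 2.48% and 2.13% of the NDUFA4 and NDUFA4L2 TPM in CASM34 and 1.46% and 3.25% in p53WT. The genes ATP5MC1, ATP5MC2 and ATP5MC3 encode the same mature c subunit of the rotor ring. ATP5MC2 held 45.7% and 44.8% of their TPM in CASM34 and 45.9% and 46.8% in p53WT, and ATP5MC1 held 39.6% and 39.9% in CASM34 and 38.8% and 37.6% in p53WT. ATP5MC3 had the remaining 14.7% and 15.3% in CASM34 and 15.3% and 15.7% in p53WT. The fold changes of the 3 genes were 0.0063 for ATP5MC1, 0.0024 for ATP5MC2 and 0.05 for ATP5MC3, with intervals within 0.15 of 0.

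The 13 mitochondrially encoded subunits of complexes I, III, IV and V all had fold changes above 0 (median 0.35), and MT-ND2 (0.41, edgeR adjusted p = 0.0381) and MT-ND6 (0.56, edgeR adjusted p = 0.0489) passed, beside 1.61% of all genes called higher. With the GC and length offset neither passed, MT-ND2 having 0.49 (edgeR adjusted p = 0.0594) and MT-ND6 0.70 (edgeR adjusted p = 0.0855), and MT-ND3 passed instead, at 0.46 (edgeR adjusted p = 0.0012), beside 0.138% of all genes. Per 100 CPM of the nuclear subunits of the same 4 complexes, the mitochondrial ones had 171 and 132 CPM in CASM34 and 134 and 96.6 CPM in p53WT, so CASM34 replicate 2 lay just below p53WT replicate 1. The nuclear partners varied far less, from 10091 to 10286 CPM in CASM34 and from 10131 to 10724 CPM in p53WT.

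**Figure D5:**
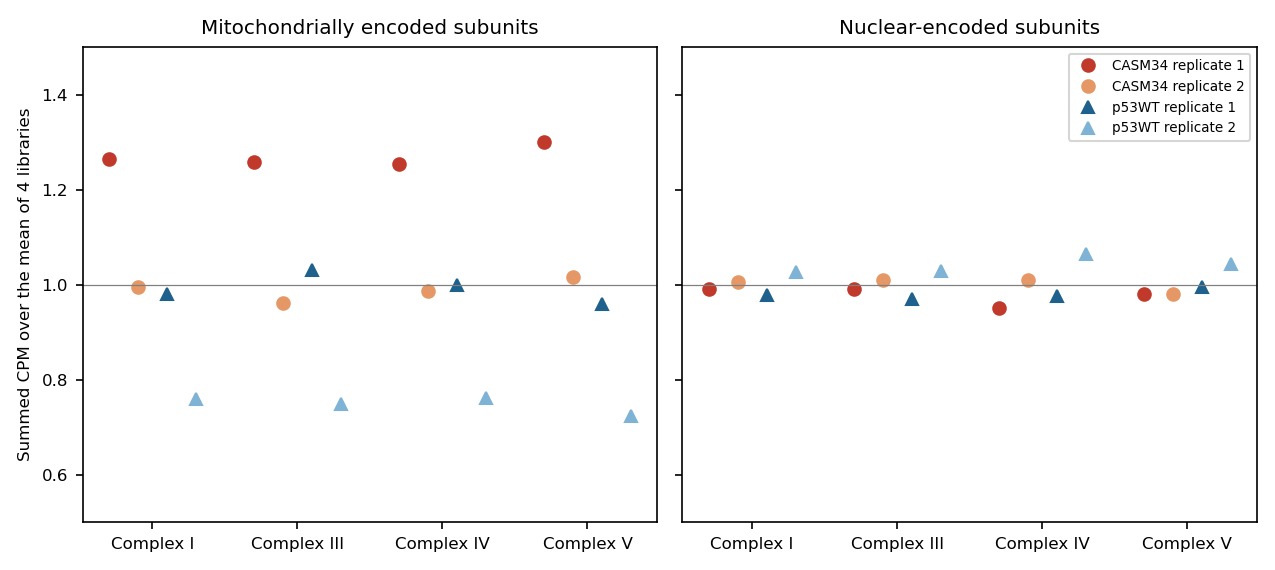
Summed CPM of the mitochondrially encoded (left) and nuclear-encoded (right) subunits of complexes I, III, IV and V in each library, divided by the mean of the 4 libraries. On the left CASM34 replicate 1 is the highest and p53WT replicate 2 the lowest in each complex, with the other 2 libraries close to 1, and on the right the 4 libraries stay close together.

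Genes that serve the chain without being subunits gave few calls too. Of all genes tested, 1.61% were called higher and 0.345% lower, so few calls are what the background would give in lists this short. Of 47 assembly factors and chaperones, 0 rose and 0 fell by edgeR, and the median log2 fold change was -0.03, with SCO2, the assembly factor named above, at 0.20 (edgeR adjusted p = 0.217). SCO2 had 31.5 and 30.7 CPM in CASM34 and 25.4 and 28.8 CPM in p53WT, a GC content of 66.2% and a fold change of -0.05 with the GC and length offset. Of 14 tricarboxylic acid cycle enzymes outside complex II, 0 rose and 0 fell (median -0.05). Of 9 electron carriers and entry points, which include cytochrome c (CYCS, -0.14, edgeR adjusted p = 0.126), 0 rose and 0 fell (median -0.03), and of 11 coenzyme Q synthesis genes 0 rose and 0 fell (median -0.02). Of 16 regulators of respiratory chain genes and of mitochondrial DNA, 1 rose and 0 fell (median -0.04). That 1 was POLRMT, the mitochondrial RNA polymerase, with 157.8 and 143.5 CPM in CASM34 and 121.1 and 128.4 CPM in p53WT, for a fold change of 0.27 on the log2 scale (SE 0.054, edgeR adjusted p = 0.0243). Its GC content was 65.1%, and with the GC and length offset it had 0.01. The transcription factors NRF1 and GABPA had -0.04 and -0.08, and TFAM, which packages mitochondrial DNA, had -0.03, none of which passed. The fold change farthest from 0 in this list was that of PPARGC1A, which encodes the coactivator PGC-1alpha, at -0.69 (SE 0.29, edgeR adjusted p = 0.239). It had 1.57 and 1.26 CPM in CASM34 and 2.72 and 1.94 CPM in p53WT, so the groups did not overlap, and it did not pass.

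NRF1 and GABPA are known to drive many respiratory chain genes through GC-rich sites near the start of transcription. The promoters, 250 bases before to 50 after the start in RefSeq's GRCh38.p14, were matched for 71 of the 91 genes. The NRF1 motif was present on either strand in 17 of the 71 (23.9%), against 7.39% of the 22199 promoters of protein-coding genes and 5.78% of all 35116 promoters of that length. The ETS motif CCGGAAG was present in 20 (28.2%), against 12.8% of protein-coding and 10.3% of all promoters. Complex III had the NRF1 motif in 4 of 7 matched promoters and complex IV in 1 of 14. That 1 was the promoter of COX8C, which was too low to test. The sequences that follow, with the motif or its reverse complement in capitals, come from SDHD, which has both motifs, from SDHA, which has the NRF1 motif 4 times, from NDUFB4, which has it 3 times, and from ATP5PD. For SDHA and NDUFB4 the copies whose surroundings lie wholly before the start site are shown.
SDHD NRF1 motif, chr11:112086748-112086787, plus strand: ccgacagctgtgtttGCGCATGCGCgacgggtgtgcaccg
SDHD ETS motif, chr11:112086781-112086817, plus strand: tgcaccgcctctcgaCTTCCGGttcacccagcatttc
SDHA NRF1 motif, chr5:218139-218178, plus strand: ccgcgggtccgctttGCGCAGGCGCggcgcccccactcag
SDHA NRF1 motif, chr5:218188-218227, plus strand: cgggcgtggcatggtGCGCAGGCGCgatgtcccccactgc
SDHA NRF1 motif, chr5:218237-218276, plus strand: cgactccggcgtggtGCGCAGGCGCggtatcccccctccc
NDUFB4 NRF1 motif, chr3:120596162-120596201, plus strand: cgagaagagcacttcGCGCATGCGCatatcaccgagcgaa
NDUFB4 NRF1 motif, chr3:120596258-120596297, plus strand: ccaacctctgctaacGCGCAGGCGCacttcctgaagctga
ATP5PD ETS motif, chr17:75047049-75047085, minus strand: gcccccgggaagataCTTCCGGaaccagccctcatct

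Counted from the start site, the capitals begin at -110 and -77 in SDHD, at -166, -117 and -68 in SDHA, at -159 and -63 in NDUFB4 and at -101 in ATP5PD, so the SDHA copies are evenly spaced. The tested subunits with an NRF1 motif had a median log2 fold change of -0.05 (16 genes) and those without it -0.04 (52 genes). With an ETS motif the median was -0.03 (20 genes) and without it -0.05 (48 genes). A match describes these letters and not a bound site.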

How the data were processed

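RNA from 4 libraries of H1299 cells was compared, CASM34 (2) against p53WT (2). Per the submitters' processing notes, the authors used Trim Galore, STAR, RSEM and GRCh38, with versions not given. The deposited tables hold, per gene, the authors' expected counts, TPM and effective length, per the file headers. Symbols were matched by Ensembl gene ID without its version, and some differ from the GENCODE 29 names. ATP5MJ is ATP5MPL there, and ATP5MK is ATP5MD. Gene coordinates are those of GENCODE 29 on GRCh38, and coordinates are 1-based.

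Rounded expected counts were tested with edgeR 4.0.16 in R 4.3.3 by the quasi-likelihood F test with group as the only term, after TMM scaling and a filter (filterByExpr, minimum count 10). P-values were adjusted by Benjamini-Hochberg over the 15965 genes that passed, with a threshold of 0.05. The fit was tested on simulated data. The filter kept 85 of the 91 subunits. Standard errors are the log2 fold change over the square root of F. GC content is that of the gene's GENCODE 29 transcripts, and its offset removes from each library a natural-spline trend in GC content and in effective length (5 degrees of freedom each). Alternatives were other scalings and filters, DESeq2 1.42.0, limma 3.58.1 (voom, and log2(TPM + 1)), an effective length offset, the replicate block, and leaving out mitochondrial genes or each library. Replicates of a group differed by more than counting error (chi-square per degree of freedom 3.94 in CASM34 and 3.89 in p53WT).

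The members and lists were chosen with earlier results of these data known. Genes were named by a rule: those that passed, the highest and lowest fold change and TPM of each complex, core subunits, isoform sets, members too low to test, and up to 4 passing genes of each list. Exceptions are named as such: NDUFB4, NDUFV3, COX6C, COX7C, ATP5F1D, ATP5PD and ATP5IF1, and among list genes SCO2, CYCS, NRF1, GABPA, TFAM, PPARGC1A and MT-ND3, were chosen outside it. Fractional counts, in 34 of the 91 members, come from reads shared between genes. Some genes, 1 tested subunit among them, are counted in the totals but not reported or drawn on their own here.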

Additional observations from a re-analysis of the deposited data

How the results depend on the processing

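The direction and call of NDUFS7 were the same under the other scalings and filters, limma-voom and the fit without mitochondrial genes; the call was lost with DESeq2 (log2 fold change 0.26, adjusted p = 0.0537), limma on log2(TPM + 1) (0.26, adjusted p = 0.338), the effective length offset (0.26, adjusted p = 0.309), the GC and length offset (0.06, adjusted p = 0.658) and without p53WT replicate 1 (0.20, adjusted p = 0.228). DESeq2 gave no adjusted p for 4 subunits. With no filter on low counts 2 subunits rose and 1 fell, beside 2.07% and 0.898% of all genes. The number that rose was 0 with DESeq2, limma on log2(TPM + 1) and the effective length offset. In that order, 1.54%, 0.00% and 0.0188% of all genes were called higher. Nearly all calls in the data were thus lost with limma on log2(TPM + 1) and the effective length offset. Without 1 library, 0 to 3 rose and 0 to 7 fell, and the all-subunit median ran from -0.087 to 0.0090. The medians ran from -0.066 to 0.029 in complex I, -0.060 to -0.0070 in complex II and -0.088 to 0.0085 in complex V. With the GC and length offset the median was -0.0088 in complex II, -0.0066 in complex IV and 0.017 in complex V.

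Across 14097 genes, the difference between replicates 1 and 2 hardly correlated between the groups (r = 0.04). Over the subunits, the median deviation was lower in replicate 1 of both groups, -0.03 against 0.01 in CASM34 and -0.03 against 0.06 in p53WT. The mitochondrially encoded subunits summed higher in replicate 1 of both groups, 17264 against 13548 CPM in CASM34 and 13544 against 10354 CPM in p53WT. The labels do not say whether the numbers pair the samples, and these values cannot decide it. With the replicate block 4 subunits rose (NDUFS7, NDUFB2, ATP5F1D and ATP5MF-PTCD1) and 4 fell (NDUFB4, UQCRH, ATP5PB and ATP5PD), beside 5.00% and 2.26% of all genes, and NDUFA4L2 was at 0.043.

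Signs turned for many members with fold changes near 0 or with few counts, and also for CYC1, COX7A2, ATP5F1D and UQCR11, which had neither. The values were, with no filter, ATP5MC1 -0.00086 and ATP5MC2 -0.0048; with DESeq2, ATP5MC2 -6.2e-06; and with limma-voom, NDUFA4L2 0.043. On log2(TPM + 1) they were NDUFS3 -0.026, NDUFV1 0.044, SDHC 0.0045, UQCRC1 -0.053, ATP5MC2 -0.00031 and ATP5MC3 -0.0089, and with the effective length offset NDUFS3 -0.031, NDUFV1 0.039, UQCRC1 -0.057, ATP5MC2 -0.0044 and ATP5MC3 -0.014. With the GC and length offset they were NDUFS8 -0.060, SDHB 0.018, SDHC 0.010, CYC1 -0.065, UQCRC1 -0.066, COX5A 0.026, COX6A1 0.069, COX7A2 0.0020, COX7B2 0.057, COX7C 0.049, NDUFA4 0.016, ATP5MF 0.056 and ATP5F1D -0.067. Leaving out 1 library gave -0.017 to 0.27 for UQCR11, -0.024 to 0.034 for ATP5MC1, -0.039 to 0.042 for ATP5MC2, -6.86 to 1.54 for NDUFC2-KCTD14, -0.068 to 0.061 for NDUFV1, -0.041 to 0.026 for SDHA, -0.080 to 0.062 for COX4I1, -0.091 to 0.031 for COX5A, -0.12 to 0.078 for COX6A1, -0.20 to 0.054 for COX7B2, -0.12 to 0.023 for COX8A, -0.49 to 0.66 for NDUFA4L2, -0.14 to 0.0056 for ATP5MF, -0.12 to 0.051 for COX5B, -0.19 to 0.026 for COX7C and -0.056 to 0.096 for ATP5IF1. Where a library is left out, the lone library of its group is assumed to vary like the others. The causes of these changes were not tested.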
